A study of Mus musculus with 11 samples.

Results

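A set of 9 genes that mark the projection neurons of the striatum was followed in RNA-seq libraries of the neocortex, with libraries of the hippocampal CA1 region as a reference. The genes are Drd1, Drd2, Adora2a, Ppp1r1b, Pde10a, Rgs9, Gpr6, Rarb and Ido1. They were chosen by name, and all 9 were found by gene identifier among the 39017 genes of the count table. The mice were 13 to 14 weeks old and came from a cross of floxed Dicer with Camk2a-Cre, a transgene active mainly in forebrain excitatory neurons. In the knockout (KO) group these animals are Camk2a-Cre;Dicer flox/flox and cannot make Dicer, the enzyme that cuts mature miRNAs, in the cells where Cre acts. The labels call the other animals control and do not give their alleles. All 6 neocortex libraries are male: controls D5129, D5134, D5135, then KO D5130, D5132, D5133. For the CA1 there are controls D5134, D5135 and D5138, the last of them female, and 2 male KO libraries, D5130 and D5133. Values per library are given below in these orders. The libraries came from 7 animals, of which 4 gave both tissues, so the tissues are not independent samples. Polyadenylated RNA was sequenced with a stranded kit in the neocortex and an unstranded kit in the CA1.

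Most neurons of the striatum are GABA-releasing projection neurons that receive dopamine and glutamate input. Those of the direct pathway carry the D1 dopamine receptor, which raises cAMP, and those of the indirect pathway carry the D2 receptor, which lowers it, together with the adenosine A2a receptor. Phosphodiesterases, RGS proteins and the phosphatase inhibitor DARPP-32 shape the signal downstream in both. Several of these genes are also expressed in other forebrain cells: deep cortical layers contain neurons with D1 receptors and DARPP-32, so these genes are not exclusive to the striatum. The striatum lies directly beneath the neocortex, separated from it by white matter.

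Total gene counts ranged from 43144097 to 58329441 in the neocortex and from 24806581 to 35684618 in the CA1. They were scaled to CPM, the reads of a gene relative to all reads in the library, with library sizes adjusted by TMM within each tissue. Dicer1 itself was at 59.3 to 66.5 CPM in the neocortex controls and 59.0 to 63.3 CPM in the KO libraries, and a count over the whole gene does not resolve a floxed exon, so it does not check the labels. The neocortical layer genes Rorb and Cux2 were at 55.3 to 65.4 and 174.4 to 194.2 CPM in the neocortex and at 18.6 to 25.4 and 35.8 to 54.5 CPM in the CA1. Fibcd1, a marker of CA1 pyramidal cells, was at 9.27 to 12.6 CPM in the neocortex and 127 to 162 CPM in the CA1, while Prox1, a marker of dentate granule cells, reached 109 to 157 CPM in the CA1 libraries. Wfs1 separated the tissues less well, at 100.4 to 131.9 CPM in neocortex controls and 148.9 to 215.1 CPM in CA1 controls. With KO it was at 71.8 to 76.7 CPM in the neocortex and 68.7 to 79.5 CPM in the CA1. It was called lower in both tissues (log2 -0.58 and -1.26, edgeR adjusted p of 0.016 and 0.026). Fibcd1, Prox1, Wfs1 and Dicer1 were picked for this check. By the composition of their ERCC spike-in RNAs, the neocortex libraries fell into set 1 (D5129, D5130 and D5132) and set 2 (D5133, D5134 and D5135), each with both genotypes.

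A single neocortex library stood apart for these genes. The control library D5135 held the highest CPM of the 6 libraries for 6 of the 9 genes, namely Drd1, Drd2, Adora2a, Rgs9, Gpr6 and Rarb. Among all genes tested, D5135 was highest for 17.2%. For Drd2, Adora2a and Gpr6 it exceeded every other library by more than 1.5-fold, after adding 0.1 CPM to both, a lead that D5135 held for 0.389% of all genes. The remaining 3 genes were highest elsewhere: Ppp1r1b and Ido1 in control D5134 and Pde10a in KO D5133. This description was added after the values had been seen. Results that rest on D5135 are therefore given with and without it.

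**Figure D1:**
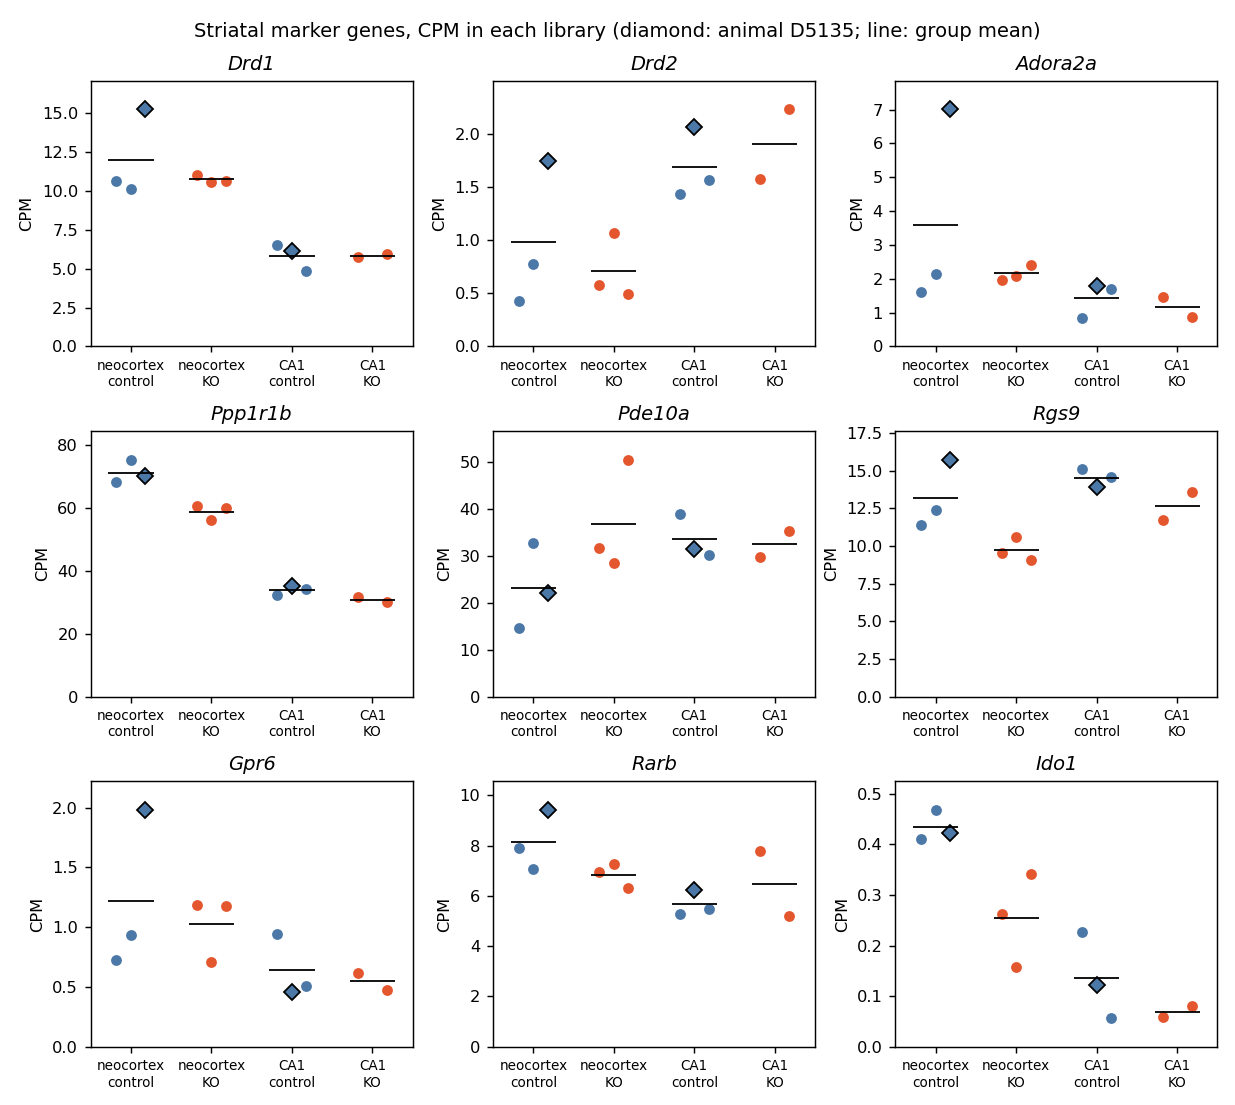
CPM of the 9 striatal marker genes (vertical axes, each from 0) in each library of the 4 groups, with controls in blue, KO in red, the libraries of animal D5135 as diamonds and the group mean as a line. The neocortex D5135 diamond lies above the other 5 neocortex libraries for Drd1, Drd2, Adora2a, Rgs9, Gpr6 and Rarb, and the CA1 diamond of the same animal is the highest CA1 point for Adora2a and Ppp1r1b alone.

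Dividing CPM by exon length (RPKM) allowed levels to be compared between genes. In the neocortex Ppp1r1b was highest by far, with a mean of 22.2 RPKM over the 6 libraries (19.2 to 25.8). Drd1 followed at 3.13 RPKM, then Pde10a at 2.33, Rgs9 at 1.79, Rarb at 1.42, Adora2a at 0.938, Gpr6 at 0.627, Drd2 at 0.333 and Ido1 at 0.188. Only the first step of this order exceeded the spread: for 7 of the 8 neighbouring pairs the libraries overlapped. In the CA1 Ppp1r1b again led, with 11.2 RPKM (10.3 to 12.03), and the next were Pde10a at 2.58, Rgs9 at 2.16, Drd1 at 1.61 and Rarb at 1.14. Drd2 at 0.697 RPKM ranked above Adora2a at 0.435, Gpr6 at 0.337 and Ido1 at 0.0596, and 4 of the 8 neighbouring pairs overlapped. Tissue and kit cannot be told apart, so the levels of the tissues are set side by side without a test.

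**Figure D2:**
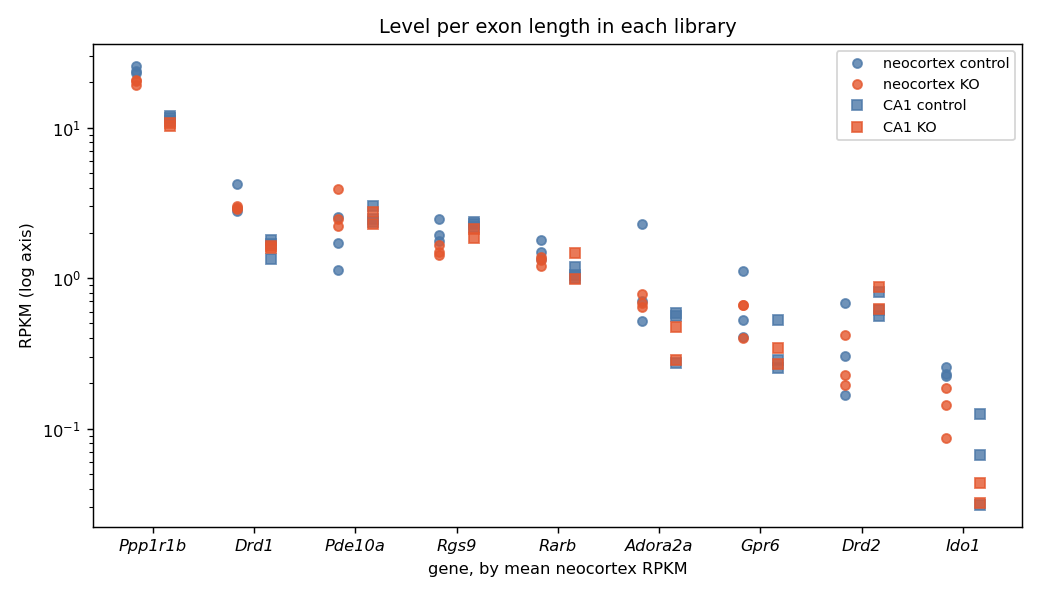
Level per exon length (RPKM, log axis) of each gene in each neocortex library (circles) and CA1 library (squares), with controls in blue and KO in red, ordered by the mean over the neocortex libraries. Ppp1r1b lies apart at 19.2 to 25.8 RPKM in the neocortex, and from Drd1 to Ido1 each gene overlaps the next.

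Because Dicer loss removes mature miRNAs, the 3′ untranslated regions (UTRs) of the 9 genes were searched for 8mer sites, the reverse complement of miRNA bases 2 to 8 followed by A, of 15 miRNAs chosen as abundant in brain. The miRNA list was chosen after the values had been seen. A site was found in 4 genes, 1 each, and the sequences show which letters pair. The share of all genes with a site of any of the 15 miRNAs was not counted. The 4 of 9 therefore cannot be set against the shares for single miRNAs given below. In the mature miRNAs, from RefSeq (build GRCm38.p6), the capitals mark the seed, and in the sites, read from the GRCm38 genome in GENCODE M21 transcripts, the capitals mark the 8mer. No sequence overlaps another.
mmu-miR-30a-5p: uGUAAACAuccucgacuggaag
Drd1 site: tttgttgtttgaaaTGTTTACA
mmu-miR-9-5p: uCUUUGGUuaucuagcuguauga
Drd2 site: cctgtctccttggcACCAAAGA
mmu-miR-125b-5p: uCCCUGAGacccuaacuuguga
Adora2a site: cagaccgccgaggcCTCAGGGA
mmu-miR-128-3p: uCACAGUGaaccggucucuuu
Pde10a site: gtacttgcccagaaCACTGTGA
The Drd1 stretch lies at chr13:54051363-54051384 on the minus strand, and the others on the plus strand at chr9:49407366-49407387 (Drd2), chr10:75334292-75334313 (Adora2a) and chr17:8985863-8985884 (Pde10a). Such letters are common: of 21037 genes with a 3′ UTR, 6.78% held the TGTTTACA of miR-30a-5p, 4.12% the ACCAAAGA of miR-9-5p, 4.59% the CTCAGGGA of miR-125b-5p and 5.14% the CACTGTGA of miR-128-3p. The other sites searched, on the transcript strand as all were, were in none of the 9 genes and in 2.35% to 5.28% of all genes: CTACCTCA (let-7a-5p), TACTTGAA (miR-26a-5p), TGGTGCTA (miR-29a-3p), GTACTGTA (miR-101a-3p), ATGCTGCA (miR-103-3p), GACTGTTA (miR-132-3p), AGCAATAA (miR-137-3p), CACCAGCA (miR-138-5p), CTATGCAA (miR-153-3p), TGAATGTA (miR-181a-5p) and AAGCACAA (miR-218-5p). The Drd2 and Pde10a stretches lie beyond the end of the gene as the count table gives it. None of the 4 genes with a site passed the main fit in either tissue. Pde10a passed in some alternative fits, as the values below show.

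In the neocortex, 1 of the 9 genes passed the test between KO and control and 8 did not. Ppp1r1b was lower in the KO libraries, and no gene was higher. Over all 16971 genes tested with edgeR's quasi-likelihood test, 1.51% were higher and 1.20% lower at an adjusted p under 0.05. At an unadjusted p under 0.05 the count was 2 genes, Ppp1r1b and Rgs9, and DESeq2 called the same 2. Over all genes, 3049 of 16971 had an unadjusted p under 0.05, the base for later neocortex counts at that threshold. The fold change was negative for 8 of the 9 genes, with a median of -0.28 on the log2 scale against 0.00 over all genes. Without D5135 the median was 0.05 and no gene was called. Scaling by the ERCC counts instead of TMM moved the median of all genes to 1.06 and that of the 9 genes to 0.74. All 9 fold changes were then positive, with SEs of 0.75 to 0.87, and none was called. ERCC reads made up 0.686%, 0.189% and 0.445% of the counts in controls. In the KO libraries they made up 0.268%, 0.169% and 0.113%.

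Ppp1r1b encodes DARPP-32, which inhibits protein phosphatase 1 after phosphorylation by the cAMP-dependent kinase, and lies at chr11:98348404-98357286. It was at 68.2, 75.4 and 70.3 CPM in controls, against 60.5, 56.1 and 59.9 CPM with KO. Every KO library was below every control, and D5135 was in the middle of the controls. The means were 71.3 ± 3.72 CPM (SD, n = 3) and 58.8 ± 2.38 CPM (SD, n = 3), a log2 fold change of -0.28 (SE 0.061; adjusted p = 0.035 by edgeR). Within spike-in set 1 the log2 ratio of means was -0.22 (1 control, 2 KO) and within set 2 it was -0.28 (2 controls, 1 KO). The call did not survive leaving out any single library: the log2 fold change was then -0.23 to -0.31 with an edgeR adjusted p of 0.0501 to 0.159, and without D5135 it was -0.29 at 0.0501. In these bulk samples fewer cells with the RNA and less RNA per cell cannot be told apart.

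Rgs9, which encodes a GTPase-activating protein that shortens dopamine receptor signals, lies at chr11:109225355-109298106. Controls gave 11.4, 12.4 and 15.7 CPM, and KO libraries gave 9.56, 10.6 and 9.05 CPM. The groups did not overlap, but D5135 was well above the other controls. The log2 fold change was -0.43 (SE 0.13) and missed the threshold with an edgeR adjusted p of 0.092. It passed with DESeq2 (adjusted p = 0.025) and in edgeR without a filter on low counts (adjusted p = 0.029). Without D5135 it was -0.28 at an edgeR adjusted p of 0.221.

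Ido1 encodes indoleamine 2,3-dioxygenase, the first enzyme of the kynurenine pathway, and lies at chr8:24584136-24597009. It rested on few reads, with 22, 20 and 20 counts in controls and 14, 8 and 20 counts with KO. As CPM the controls were at 0.410 to 0.468 and the KO libraries at 0.158 to 0.342, without overlap. The log2 fold change of -0.75 (SE 0.39) did not pass the test (edgeR adjusted p = 0.344). Ppp1r1b, Rgs9 and Ido1 were the 3 of 9 genes whose KO libraries all lay below all controls, an arrangement found for 12.4% of all genes tested. Every Ido1 count in the 11 libraries was an even number.

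Drd1 and Drd2 encode the dopamine receptors of the direct and indirect pathway. Drd1, at chr13:54051186-54055658, was at 10.6, 10.1 and 15.2 CPM in controls. With KO it was at 11.03, 10.5 and 10.6 CPM, within the range of the controls. D5135 was the high library, the other 5 lying between 10.1 and 11.03 CPM, and the log2 fold change of -0.16 (SE 0.14; adjusted p = 0.614 by edgeR) turned to 0.05 without it. Drd2, at chr9:49340662-49407214, was at 0.428, 0.773 and 1.75 CPM in the same controls and stood at 0.582, 1.07 and 0.496 CPM in KO libraries. The groups overlapped, and the log2 fold change of -0.46 (SE 0.50; adjusted p = 0.706 by edgeR) turned to 0.26 without D5135.

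Adora2a, at chr10:75316943-75334788, and Gpr6, at chr10:41069989-41072285, also mark the indirect pathway. Adora2a encodes the A2a receptor, which raises cAMP, and Gpr6 an orphan receptor with high basal activity on cAMP. Adora2a was at 1.602, 2.15 and 7.001 CPM in controls, against 1.97, 2.09 and 2.41 CPM with KO. D5135 was 3.73-fold above the mean of the other controls, while those 2 controls and the 3 KO libraries overlapped. The control mean was accordingly 3.59 ± 2.97 CPM (SD, n = 3), and the log2 fold change of -0.73 (SE 0.61; adjusted p = 0.621 by edgeR) turned to 0.21 (SE 0.21) without D5135. Gpr6 was at 0.727, 0.936 and 1.98 CPM in the controls and 1.18, 0.710 and 1.18 CPM in the KO libraries. Its log2 fold change of -0.24 (SE 0.37; adjusted p = 0.810 by edgeR) turned to 0.31 without D5135, which was 2.38-fold above the other controls.

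Pde10a encodes the phosphodiesterase PDE10A, which breaks down cAMP and cGMP, and lies at chr17:8525372-8982391. It varied widely within groups: controls gave 14.5, 32.8 and 22.1 CPM and KO libraries gave 31.6, 28.4 and 50.5 CPM. Here D5135 was not high, and KO D5133 exceeded every other library by more than 1.5-fold. The log2 fold change of 0.68 (SE 0.41) did not pass the test (edgeR adjusted p = 0.491). It was 0.38 without KO D5133, 0.43 without control D5129 and 1.01 without control D5134, with edgeR adjusted p of 0.777, 0.655 and 0.351. Within spike-in set 1 the log2 ratio of means was 1.04, and within set 2 it was 0.88, so the KO libraries were higher in both. When the fit took the spike-in set as a batch, the log2 fold change was 0.96 (SE 0.15) at an edgeR adjusted p of 0.032, and Ppp1r1b was then no longer called (-0.25, adjusted p = 0.105). Of all genes, 0.719% were called higher in that fit.

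Rarb encodes a nuclear receptor for retinoic acid and lies at chr14:16430842-16575472. Controls were at 7.90, 7.07 and 9.43 CPM and KO libraries at 6.97, 7.26 and 6.31 CPM. The groups overlapped, and the log2 fold change was -0.25 (SE 0.13; adjusted p = 0.344 by edgeR). Without D5135 it was -0.13 (SE 0.13; adjusted p = 0.674 by edgeR). Exons of Rarb overlap those of Top2b on the opposite strand over 1793 bases, and exons of Ppp1r1b overlap 1700003D09Rik over 460 bases. In the unstranded CA1 libraries reads from such overlaps cannot be told apart. Whether the neocortex counts separate them was not tested.

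**Figure D3:**
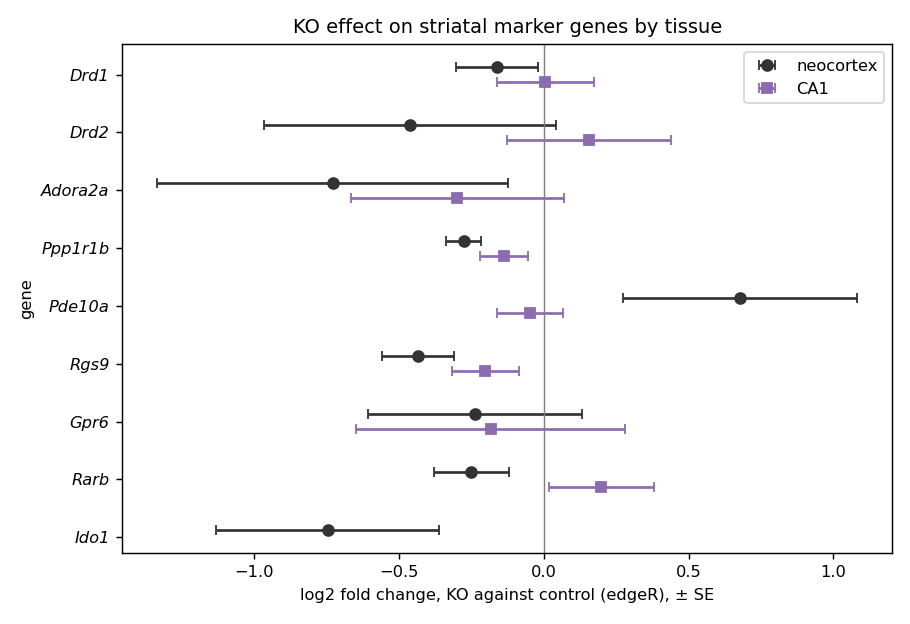
Log2 fold change of KO against control with its standard error (horizontal axis, edgeR) for the 9 genes in the neocortex (circles) and for the 8 genes tested in the CA1 (squares). In the neocortex 8 of 9 points lie below 0 and Pde10a lies at 0.68, while the CA1 points lie between -0.30 and 0.20.

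In the CA1, 8 of the 9 genes were tested, since Ido1 had 2 to 6 counts per library, and none was higher or lower. Across all 18274 genes tested there, 2.47% were higher and 1.41% lower by edgeR. Over all genes, 3159 of 18274 had an unadjusted p under 0.05, the base for later CA1 counts at that threshold. None of the 8 genes had an unadjusted p under 0.05, and DESeq2 called none. Log2 fold changes ran from -0.30 (Adora2a) to 0.20 (Rarb), with SEs of 0.08 to 0.46, and their median was -0.09. Ppp1r1b was at 32.2, 35.2 and 34.2 CPM in controls, against 31.5 and 30.1 CPM with KO, a log2 fold change of -0.14 (SE 0.084; adjusted p = 0.442 by edgeR). Rgs9 was at 15.1, 13.9 and 14.6 CPM in the controls and 11.8 and 13.6 CPM in the KO libraries, a log2 fold change of -0.20 (SE 0.12; adjusted p = 0.415 by edgeR). These were the 2 genes whose CA1 KO libraries lay below all CA1 controls, which held for 16.3% of all genes tested.

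The CA1 library of animal D5135 was the highest of the 5 for Adora2a and Ppp1r1b and for no other of the 9 genes. Adora2a was at 1.79 CPM there, close to the 1.71 CPM of CA1 control D5138 and above the 0.833 CPM of D5134. Drd1 was at 6.13 CPM against 6.51 and 4.83 CPM in D5134 and D5138. Gpr6 was lowest there, at 0.455 CPM against 0.946 and 0.512 CPM. Drd2 was at 2.06 CPM against 1.44 and 1.56 CPM, and KO D5133 was higher at 2.23 CPM. Pde10a stayed between 29.7 and 38.8 CPM in the 5 CA1 libraries, a narrower span than in the neocortex.

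Whether the KO effect differed between the tissues was tested as an interaction over all 11 libraries. None of the 9 genes passed (edgeR adjusted p 0.566 to 1.00), none had an unadjusted p under 0.05, and 0.0935% of all genes passed. The difference, neocortex minus CA1, ran from -0.62 for Drd2 (SE 0.63) to 0.73 for Pde10a (SE 0.50). In the paired fit, with animal as a replicate block, Pde10a passed with a difference of 0.68 (SE 0.14; adjusted p = 0.046 by edgeR), where 0.592% of all genes passed. That fit takes the difference from the 4 animals with both tissues alone.

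A further 32 genes of striatal projection neurons, of which 30 were in the table and 27 tested in the neocortex, were examined beside the 9. In the KO libraries 1 was higher and 4 were lower, beside 1.51% and 1.20% of all genes, with a median log2 fold change of -0.17. That median was -0.06 without D5135. Penk, the enkephalin precursor of the indirect pathway, fell from 49.8, 64.8 and 69.1 CPM to 38.2, 34.4 and 32.6 CPM (log2 -0.80, SE 0.12; adjusted p = 0.014 by edgeR). Scn4b, a sodium channel subunit (log2 -0.45; adjusted p = 0.010), and Strip2 (log2 -0.36; adjusted p = 0.025) were also lower by edgeR. Ptpn5, the striatum-enriched phosphatase STEP, was higher (log2 0.26; adjusted p = 0.035 by edgeR). The groups did not overlap for Penk, and without D5135 the same 4 genes were called lower and none higher. Without KO D5133 none of these genes was called, and without KO D5132 2 were lower, Scn4b among them. DESeq2 called 1 higher and 6 lower. With ERCC scaling none was called, and their median was 0.96 beside 1.06 for all genes.

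In the CA1, 26 of these further genes were tested, of which 1 was higher and 4 were lower (median log2 fold change -0.02). Over all genes tested there, 2.47% were higher and 1.41% lower. Markers of other cells moved in the same libraries. Of 12 microglia genes 7 were higher by edgeR (summed level 369 to 390 CPM in the controls, 496 to 565 CPM with KO), and of 8 astrocyte genes 2 were, Gfap and Aqp4 (2426 to 2524 CPM, then 2962 to 3176 CPM). Of 8 oligodendrocyte genes 7 were lower (3538 to 4291 CPM, then 2914 to 2931 CPM), which became 3 without KO D5133 and 4 without KO D5130. Without KO D5133 the microglia count was 4 and the astrocyte count 1. The part of these cells in the CA1 results was not tested. Penk was at 29.2, 25.9 and 28.3 CPM in controls, against 17.4 and 15.3 CPM with KO (log2 -0.76; adjusted p = 0.001 by edgeR). Strip2 (-0.57), Dclk3 (-0.50) and Gng7 (-0.25) were the others lower on the log2 scale, with edgeR adjusted p of 0.013, 0.019 and 0.049. Sh3rf2 had 0 counts in the 3 CA1 controls and 20 and 10 counts in the KO libraries, at least 15.9-fold higher against a floor of 3 counts over the control group (edgeR adjusted p = 0.008). Penk was called lower in each of the 5 fits without 1 CA1 library. Without the female control D5138, Sh3rf2 was the other gene still called. Without KO D5130 or without KO D5133 no other of the 5 was, and Scn4b, not among them, was called lower in the former fit. Without control D5134, 2 were higher and 6 lower. DESeq2 called 6 lower and none higher.

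D5135 was also highest for 18 of the 27 further striatal genes tested in the neocortex, and by more than 1.5-fold for 4 of them (Syndig1l, Rxrg, Gprin3 and Serpina9). Relative to the median of the 6 libraries, the 9 genes had a median deviation of 0.51 in D5135 on the log2(CPM + 0.1) scale, and the medians of the other 5 libraries were -0.10 to 0.13. For the 27 further genes the median was 0.25 in D5135 and -0.06 to 0.02 in the other libraries. Isl1 and Lhx8, factors of striatal and cholinergic neurons picked after their values were seen, had counts in the neocortex in D5135 alone, at 0.211 and 0.127 CPM. The cholinergic genes Chat and Slc5a7 were highest in KO libraries, Chat at 0.612 CPM in D5132 against 0.422 CPM in D5135, and Slc5a7 at 0.864 CPM in D5130 against 0.822 CPM in D5135. Six3, a factor of indirect pathway neurons picked in the same way, was at 0.401 CPM in D5135, at 0.0745 and 0.234 CPM in the other controls and at 0 to 0.0395 CPM in the KO libraries. Drd3, a further striatal gene, was at 0 CPM in D5135 and the other controls and at a mean of 0.0191 CPM with KO. Isl1, Lhx8, Six3 and Drd3 were too low to be tested in the neocortex.

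**Figure D4:**
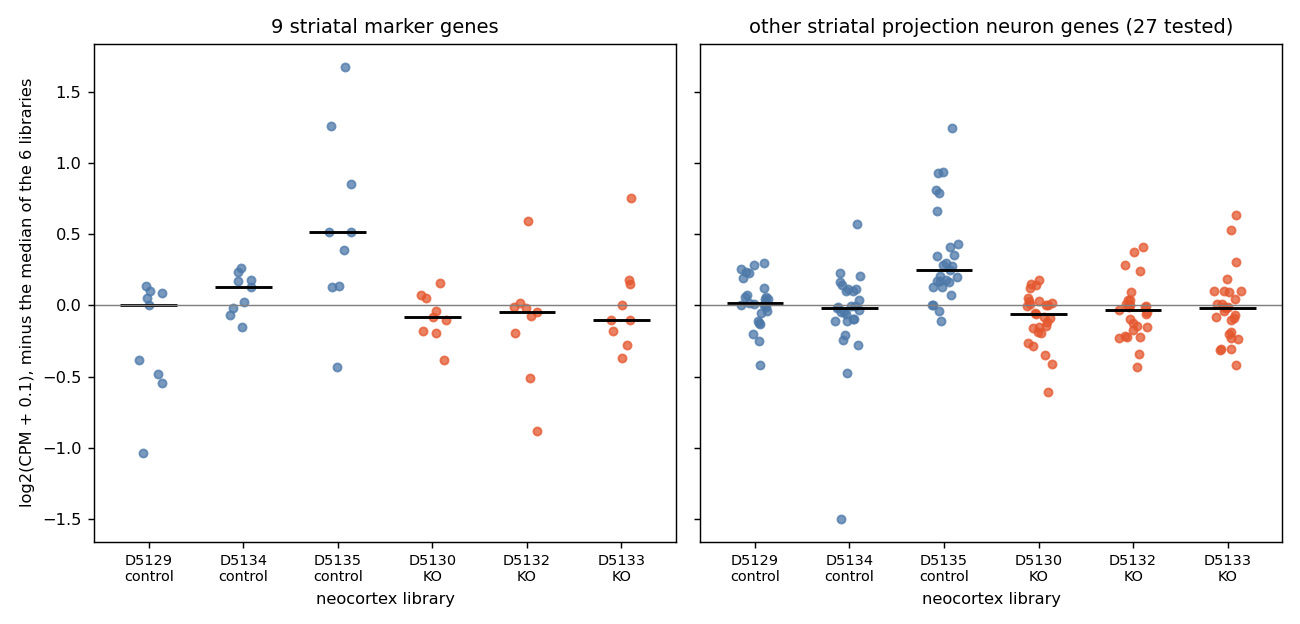
Deviation of each gene from its median over the 6 neocortex libraries (vertical axis, log2(CPM + 0.1)) by library, for the 9 striatal marker genes (left) and the 27 further striatal genes tested (right), with controls in blue, KO in red and the median as a line. The D5135 medians of 0.51 and 0.25 lie above those of the other 5 libraries in both panels.

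Markers of other cells in D5135 were given by the summed CPM of their lists. The 9 meninges genes, among them Dcn, Col1a1 and Slc6a13, summed to 166 CPM in D5135, 93.3 and 88.3 CPM in the other neocortex controls and 116 to 152 CPM in the KO libraries, and D5135 was highest for 7 of the 9. Striatal cholinergic genes were low throughout, at 5.08 CPM in D5135, 3.39 and 2.25 CPM in the other controls and 3.56 to 3.85 CPM in the KO libraries. D5135 was highest for 1 of the 3 tested, Zic4, at 3.29 CPM against 2.01 and 1.59 CPM in the other controls. Thalamus genes summed to 98.5 to 99.6 CPM in the controls and choroid plexus genes to 6.13 to 6.58 CPM. GABA neuron genes summed to 1929 CPM in D5135, 1943 and 1924 CPM in the other controls and 1998 to 2075 CPM in the KO libraries. Claustrum and deep layer genes summed to 268 CPM in D5135, 270 and 248 CPM in the other controls and 223 to 270 CPM with KO. No gene of these 2 lists was called by edgeR, and D5135 was highest for 2 of 14 and 2 of 9. D5135 was highest for 5 of 12 excitatory cortical neuron genes, 3 of 7 choroid plexus genes and 2 of 7 thalamus genes tested. It was highest for 3 of 12 microglia, 1 of 8 oligodendrocyte and 0 of 8 astrocyte genes, against 17.2% of all genes. Excitatory cortical neuron genes summed to 2985 to 3055 CPM in the controls and 2695 to 2819 CPM in the KO libraries, with none of 12 called by edgeR, 5 at an unadjusted p under 0.05 and 3 called by DESeq2. Of 12 microglia genes 4 were higher in the neocortex, beside 1.51% of all genes (517 to 540 CPM in the controls, 545 to 599 CPM with KO, and 1 called without KO D5133). No oligodendrocyte gene of 8 was called by edgeR or DESeq2 (1 at an unadjusted p under 0.05), and no astrocyte gene of 8 by edgeR (3 at an unadjusted p under 0.05; Gfap by DESeq2). The part of tissue from the striatum, meninges or any other source in the values of D5135 was not tested.

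The other genes of the pathways in which the 9 act were counted in the same way. In the neocortex, of 31 tested dopamine and cAMP signalling genes 2 were lower, beside 1.20% of all genes, and none was higher (median log2 fold change -0.04): Ppp1r1a, a phosphatase inhibitor related to DARPP-32 (-0.51; adjusted p = 0.006 by edgeR), and Prkar1b, a regulatory subunit of the cAMP-dependent kinase (-0.31; adjusted p = 0.009 by edgeR). Of 30 tested in the CA1, 2 were lower (Ppp1r1a, -0.43, edgeR adjusted p = 0.026, and Gng7), and DESeq2 called 5 lower. Over all genes tested in the CA1, 2.47% were higher and 1.41% lower by edgeR. At an unadjusted p under 0.05 the list had 7 of its neocortex tests and 15 of its CA1 tests. Over all genes these counts were 3049 of 16971 and 3159 of 18274. No gene of this list was called in the CA1 without KO D5133 or without control D5138, and none was called in the neocortex without KO D5133 or with ERCC scaling. None of 8 direct pathway genes and 1 of 7 indirect pathway genes (Penk, lower) was called in the neocortex. None of the direct pathway genes had an unadjusted p under 0.05, and DESeq2 called none. Among these were Drd1, Drd2, Adora2a and Gpr6 themselves. None of 7 kynurenine genes was called there, and none of 9 in the CA1, by edgeR or DESeq2, with 1 in each tissue at an unadjusted p under 0.05. Ido1 is a gene that interferons induce. The interferon response list had none of 14 called in the neocortex by edgeR or DESeq2 (1 at an unadjusted p under 0.05). In the CA1 5 of 14 were higher by edgeR and 3 by DESeq2, none without KO D5133 and 1 without KO D5130, in the libraries where microglia genes were also higher. Ido1 itself had 6, 4 and 2 CA1 counts in the controls and 2 and 2 in the KO libraries.

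Retinoid pathway genes, the partners of Rarb, had none of 15 called in the neocortex, by edgeR or DESeq2 or at an unadjusted p under 0.05, although without D5135 Crabp2 was called higher there. In the CA1, where edgeR called 2.47% of all genes higher, 4 of 16 retinoid genes were higher. Among these were Crabp2 (log2 2.01; adjusted p = 0.005 by edgeR), Dhrs3 (0.65; 0.008) and Aldh1a2 (1.42; 0.031), which bind or convert retinoids. Aldh1a2 is also on the meninges list, whose summed level was 94.0 to 103 CPM in the CA1 controls and 221 to 247 CPM in the CA1 KO libraries, with 4 of 9 called higher. The part of meninges in the retinoid result was not tested. Without KO D5130 none of the retinoid genes tested in the CA1 was called.

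The genes whose pattern over the 6 neocortex libraries was most like the mean pattern of the 9 genes were found by Pearson r on log2(CPM + 0.1), using the 7 of the 9 with a mean of at least 1 CPM. Among 14327 genes the 10 most alike were Tspo, Plppr2, Col9a2, Psmd5, Cetn4, Bmp4, Vars, Ccdc116, Dmrtc1a and Rnf122, with r of 0.957 to 0.987, and none is on a striatal list used here. Without D5135 their r was 0.465 to 0.945. The 25 further striatal genes compared had a median r of 0.67, against 0.01 over all genes, and a median of -0.08 without D5135, against 0.02. As a mean of z-scores (deviations in SDs over the 6 libraries), the pattern was 1.32 in D5135 and -0.50 to 0.08 in the others. The 7 genes followed it unevenly, with r of -0.16 for Pde10a, 0.55 for Ppp1r1b and up to 0.95 for Adora2a. Each of the 7 is itself part of that mean, which raises its r. Without D5135 their r was 0.75 for Ppp1r1b, 0.46 for Gpr6, 0.38 for Pde10a and 0.37 for Rgs9 and Adora2a. It was -0.33 for Rarb and -0.55 for Drd1. These values describe 6 libraries that share tissue, kit and genotype groups.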

How the data were processed

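Gene counts were used as deposited: whole numbers of reads per Ensembl gene, with no normalization by the authors. FastQC, GSNAP, SAMtools and bedtools were used on GRCm38, per the submitters' processing notes. The counting rule, annotation release and strand setting are not given in the sources used here. Below 50, counts were even in 55.0% to 61.5% of genes per library, so a low count may hold fewer independent fragments than reads. Whether controls or KO animals were littermates is not given, so the libraries may not be independent. The p-values set each difference against a spread estimated from these libraries and take the libraries as independent.

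Positions are those of the count table, 1-based on GRCm38, and 1 of the 9 genes has the same ends in GENCODE M21. Symbols, exon lengths and 3′ UTRs came from GENCODE M21, so RPKM rests on lengths that may differ from the authors' gene models.

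Each tissue was fitted with edgeR 4.0.16 in R 4.3.3 (TMM, filterByExpr with a lowest count of 10, robust quasi-likelihood test, two-sided, Benjamini-Hochberg over all genes tested, threshold 0.05). The SE was derived from the fold change and the F statistic. CPM rests on TMM-adjusted library sizes. The interaction used 4 group means. The labels give the same animal name in both tissues for 4 animals, so animal was fitted as a replicate block as an alternative; deviations from group means correlated within an animal over genes with r of 0.075 to 0.096. Other alternatives were DESeq2 1.42.0, RLE size factors, no filter, ERCC scaling, spike-in set, and leaving out each library. The fits were tested on simulated data.

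The 9 genes and the 17 lists around them were chosen with earlier results of these data known. Named genes are all 9, any list gene past the threshold or among the smallest p, and the 10 most alike by r, predicted genes left out. The 0.1 CPM pseudocount, the miRNA list and the description of D5135 came after the values were seen. The sequence of 1 of the 16 listed miRNAs was not used here. A few list genes that were called are counted but not reported here by name.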

Additional observations from a re-analysis of the deposited data

How the results depend on the processing

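Ppp1r1b in the neocortex kept its sign in each fit with TMM or RLE sizes, and its call was lost when the spike-in set entered as a batch and without any 1 library. The count of the 9 genes called lower, 1 as reported, was 2 with DESeq2 and with no filter on low counts. It was 0 with ERCC scaling, with the batch term, in each spike-in set alone, and in all 6 fits without 1 library. The count called higher rose from 0 to 1 (Pde10a) with the batch term and in set 1 alone. The median log2 fold change of -0.28 became 0.74 with ERCC scaling and 0.019 in set 1 alone, and ran from -0.51 (without D5129) to 0.046 (without D5135). In the CA1 no alternative called a gene.

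With ERCC scaling the SEs in the neocortex were 0.75 to 0.87. The log2 fold changes there turned to 0.95 for Drd1, 0.59 for Drd2, 0.48 for Adora2a and 0.74 for Ppp1r1b. They turned to 0.62 for Rgs9, 0.88 for Gpr6, 0.85 for Rarb and 0.34 for Ido1. In set 1 alone they turned to 0.019 for Drd1, 0.94 for Drd2, 0.34 for Adora2a and 0.38 for Gpr6, and Gpr6 was 0.0084 with the batch term. Without 1 neocortex library, Drd1 ran from -0.27 to 0.046, Drd2 from -0.86 to 0.26, Adora2a from -1.09 to 0.21 and Gpr6 from -0.51 to 0.31, positive only without D5135. Without 1 CA1 library, the CA1 values ran from -0.11 to 0.091 for Drd1, -0.11 to 0.40 for Drd2, -0.18 to 0.077 for Pde10a, -0.39 to 0.19 for Gpr6 and -0.13 to 0.45 for Rarb.

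In the paired fit with animal as a replicate block, 1 of the 9 genes passed in the difference between the tissues (Pde10a, 0.68), and Gpr6 turned to 0.059; no other call among the 9 changed. Without 1 library that difference ran from -0.27 to 0.056 for Drd1, -0.99 to 0.12 for Drd2, -0.77 to 0.52 for Adora2a, -0.43 to 0.50 for Gpr6 and -0.38 to 0.56 for Ido1. For the first 4 of these the highest value was the one without neocortex D5135. No turned value passed the test, and the cause was not tested.

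Over all genes, the neocortex counts of 256 higher and 204 lower were 487 and 435 with DESeq2, 396 and 374 with no filter, 122 and 69 with the batch term, 10 and 1 in set 1, 55 and 22 in set 2, and 4 and 0 with ERCC scaling. They were 16 and 3 without KO D5133, 100 and 44 without KO D5132, 130 and 79 without KO D5130, and 133 and 74 without control D5129. The CA1 counts of 452 and 258 were 858 and 609 with no filter, 417 lower with DESeq2, and 149 and 83 without KO D5133, 252 and 141 without KO D5130, and 177 and 67 without control D5138. The interaction counts of 7 and 11 were 158 and 79 with no filter and 78 and 36 with the block, and ran from 0 to 12 and 0 to 19 without 1 library. Fits that leave a lone library in a group assume that it varies like the other group. Depth limits Ido1, with 8 to 22 counts in the neocortex, and Drd2 and Gpr6, at about 1 CPM.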
